A study of Mus musculus with 4 samples.

Results

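The 10 genes described here encode 6 cytokines (Il33, Il18, Tslp, Il6, Il11 and Lif) and 4 receptor subunits (Il1rl1, Il1r1, Il6st and Osmr). They were taken by gene name from the deposited tables, and all 10 have a row among the 23358 gene rows. Their mRNA was measured by sequencing of polyadenylated RNA in a pair of clonal mouse cell lines from the muscle coat of the stomach, labelled as progenitors of interstitial cells of Cajal (ICC), which pace the contractions of the gut. The line 2xSCS70 comes from the H-2Kb-tsA58 mouse, whose transgene drives a thermolabile form of SV40 large T from a promoter that interferon induces. It was kept at 39.5 °C in NSCPM, a neural stem cell medium, with no interferon-gamma added. The line 2xSCS2F10 comes from C57BL/6J and was grown at 37 °C in NSCPM with 5% chick embryo extract. Each line has 2 libraries, numbered here as replicates 1 and 2, and by their record numbers replicate 2 of both lines was submitted later than replicate 1. Each line stands for 1 clone, and line, strain, transgene, temperature and medium change together, so their parts in any difference cannot be told apart. Nothing in the labels says that the libraries of a line are separate cultures, so p-values rest on a spread between libraries that may be technical.

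IL-33, IL-18 and TSLP are alarmin or alarmin-like cytokines that barrier and stromal cells release. IL-33 is stored in the nucleus and binds ST2 (Il1rl1), while IL-1 binds Il1r1; both receptors recruit the shared subunit Il1rap and signal through MyD88 to NF-kB. IL-6, IL-11, LIF and oncostatin M all signal through gp130 (Il6st), which pairs with subunits such as Osmr, Lifr or the alpha chains Il6ra and Il11ra1 and activates JAK kinases and STAT3.

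The libraries held 24485632 and 22368504 fragments in genes for 2xSCS70, against 20159986 and 22549451 for 2xSCS2F10. Levels are given as CPM, the counts of a gene scaled to a fixed library total after TMM normalisation, and a floor of 3 fragments equals 0.109 and 0.123 CPM in 2xSCS70 and 0.154 and 0.157 CPM in 2xSCS2F10. Of 14496 genes tested with edgeR's quasi-likelihood test, 40.6% had a Benjamini-Hochberg adjusted p under 0.05, here termed called. Of these calls 2727 were higher and 3161 lower in 2xSCS70, while limma on log2(RPKM + 1) gave 3218 higher and 1828 lower. In both lines Kit, the receptor that defines ICC, was at or near 0, with 1 fragment in a single 2xSCS70 library. The list of 11 ICC markers that holds Kit summed to 814 and 782 CPM in 2xSCS70 and 611 and 535 CPM in 2xSCS2F10. Of its 7 tested genes 2 were higher and 3 lower in 2xSCS70. Leukocyte markers were low, with a summed level of 9.8 and 10.8 CPM over 9 genes in 2xSCS70 and 6.7 and 9.7 CPM in 2xSCS2F10, and Emr1 and Tyrobp had no count. Mesothelial markers summed to 90.7 and 80.9 CPM in 2xSCS70 and 3413 and 3916 CPM in 2xSCS2F10, and all 6 with a row were lower in 2xSCS70. Smooth muscle markers summed to 842 and 779 CPM in 2xSCS70 and 5282 and 9363 CPM in 2xSCS2F10, and 7 of 8 were lower in 2xSCS70. Fibroblast and PDGFRA-positive cell markers summed to 9037 and 7454 CPM in 2xSCS70 and 25583 and 41885 CPM in 2xSCS2F10, with 4 of 8 tested genes lower in 2xSCS70, 2 higher and a median log2 fold change of -1.80. The part of these cell type markers in the results that follow was not tested.

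All 10 genes had enough counts to be tested. In 2xSCS70, 5 of them fell relative to 2xSCS2F10 (Il33, Tslp, Lif, Il6st and Osmr), 0 rose and 5 did not pass the test, where 21.8% of all genes tested were lower and 18.8% higher. Their median log2 fold change, 2xSCS70 minus 2xSCS2F10, was -1.18, beside 0.02 for all genes tested. In 7 of the 10 the libraries of the lines did not overlap, each lower in 2xSCS70, as were 37.5% of all genes tested, and in 0 was 2xSCS70 the higher, as in 39.9% of all genes tested. With a library left out, the number called moved the same way for the 10 genes and for all genes tested. It fell without a library of 2xSCS70 and rose without one of 2xSCS2F10. Only Il33 of the 10 kept its call without either library of 2xSCS70, with log2 fold changes of -3.74 without replicate 1 and -4.00 without replicate 2. With a 2xSCS2F10 library left out the spread came from the close 2xSCS70 pair alone, so the small p-values of such fits, given with each gene, assume that 2xSCS2F10 varies as little. In a bulk library fewer expressing cells and less RNA per cell cannot be told apart.

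**Figure D1:**
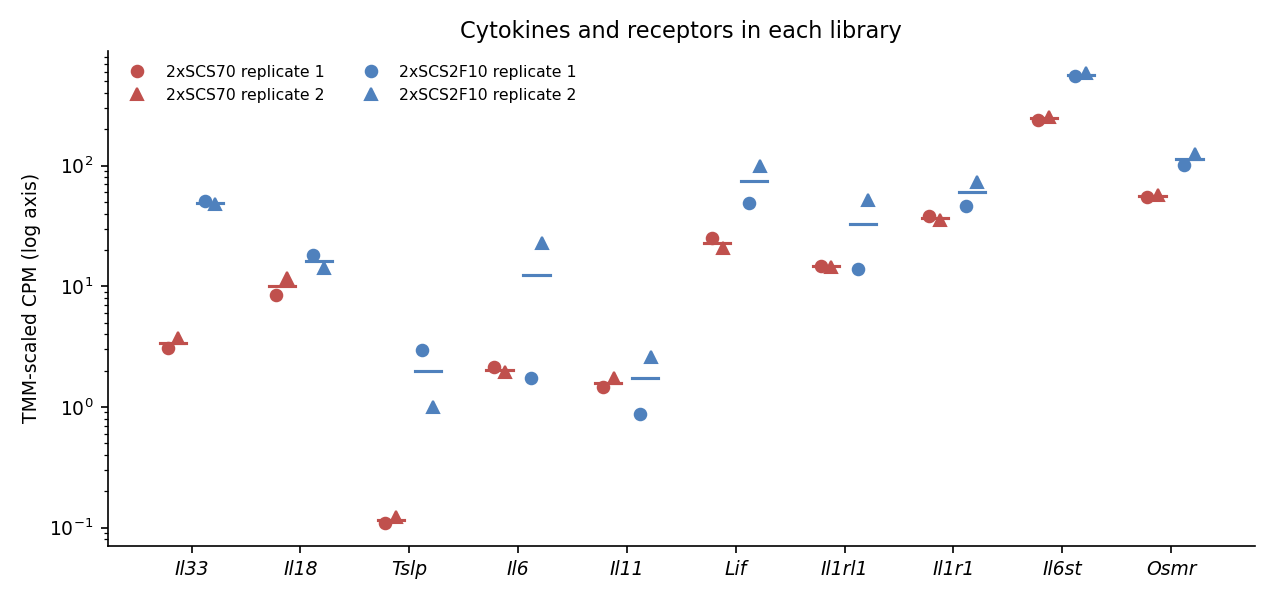
TMM-scaled CPM (log axis) of the 10 genes in each library, with 2xSCS70 in red and 2xSCS2F10 in blue, circles for replicate 1, triangles for replicate 2 and a bar at the mean of each line. The called genes Il33, Tslp, Lif, Il6st and Osmr separate the lines, as do Il18 and Il1r1 by a narrower gap. The libraries of 2xSCS2F10 lie far apart for Il6 and Il1rl1.

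**Figure D2:**
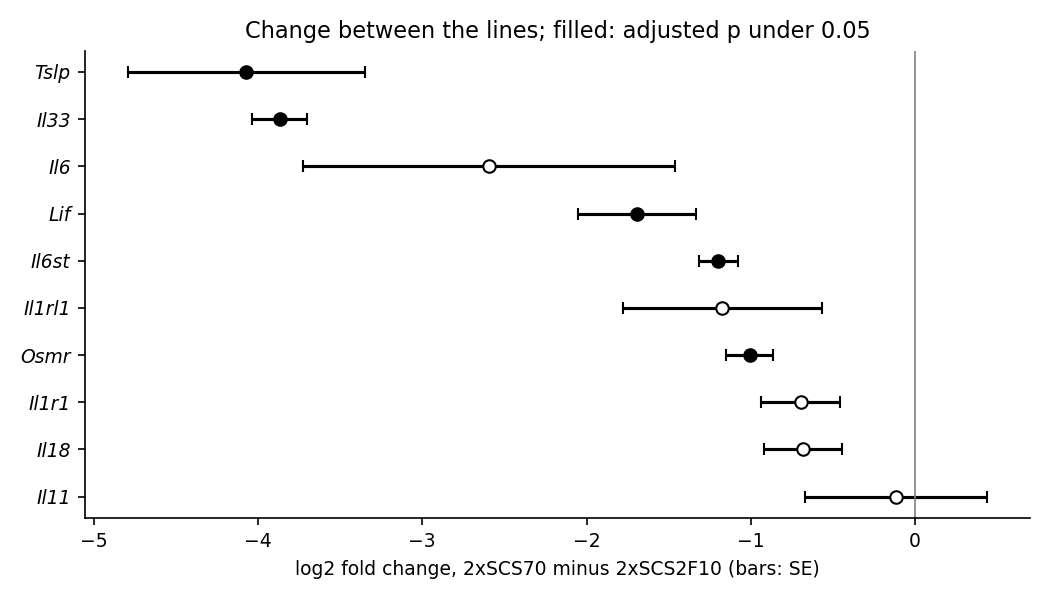
Log2 fold change of each gene, 2xSCS70 minus 2xSCS2F10, with its standard error as bars and filled points where the adjusted p is under 0.05. Tslp and Il33 lie near -4, the called gp130 ligand Lif at -1.69 and the receptors Il6st and Osmr near -1, while Il11 lies near 0.

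Windows run from 250 bases before to 50 after the annotated starts. They are shown for Il33, whose fall was called in every fit, and for Il6, Lif and Il1rl1. Il6, Lif and Il1rl1 are among the 5 genes that differed by over 2-fold between the libraries of 2xSCS2F10. The others, Tslp and Il11, are not shown. The sequences are from RefSeq on GRCm38.p6, where windows of 9 of the 10 genes were read, and those shown lie on the plus strand. Capitals mark matches, on either strand, to kappa-B, AP-1 (TGANTCA), C/EBP (TTGCNNAA), the CRE half-site TGACGT and the TATA box TATAAA; no marked match overlaps another. Il33 and Il1rl1 have a distal and a proximal start, and gene counts do not tell which was used.
Il33 distal start, chr19:29924863-29925162: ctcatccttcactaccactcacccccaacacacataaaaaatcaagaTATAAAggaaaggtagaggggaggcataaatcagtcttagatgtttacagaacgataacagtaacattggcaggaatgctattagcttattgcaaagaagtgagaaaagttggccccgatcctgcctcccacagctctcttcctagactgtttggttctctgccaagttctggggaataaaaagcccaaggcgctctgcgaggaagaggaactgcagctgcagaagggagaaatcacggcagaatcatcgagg
Il33 proximal start, chr19:29945540-29945839: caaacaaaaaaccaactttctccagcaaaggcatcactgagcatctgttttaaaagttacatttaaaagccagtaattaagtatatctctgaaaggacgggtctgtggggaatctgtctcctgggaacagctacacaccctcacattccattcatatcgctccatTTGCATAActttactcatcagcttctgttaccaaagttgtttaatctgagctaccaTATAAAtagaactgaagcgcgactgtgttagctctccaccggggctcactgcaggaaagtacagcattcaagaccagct
Il6, chr5:30012864-30013163: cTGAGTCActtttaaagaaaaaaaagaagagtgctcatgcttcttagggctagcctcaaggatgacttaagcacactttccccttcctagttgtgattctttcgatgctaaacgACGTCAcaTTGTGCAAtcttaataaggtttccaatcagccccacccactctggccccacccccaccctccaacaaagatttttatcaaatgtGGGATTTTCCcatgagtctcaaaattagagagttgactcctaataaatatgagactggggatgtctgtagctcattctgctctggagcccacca
Lif, chr11:4257318-4257617: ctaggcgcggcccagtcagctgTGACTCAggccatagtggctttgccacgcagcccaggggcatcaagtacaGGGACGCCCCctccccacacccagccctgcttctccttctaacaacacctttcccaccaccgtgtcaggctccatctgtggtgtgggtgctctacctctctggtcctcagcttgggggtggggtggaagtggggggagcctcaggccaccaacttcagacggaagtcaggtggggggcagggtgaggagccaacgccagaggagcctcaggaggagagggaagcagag
Il1rl1 distal start, chr1:40429320-40429619: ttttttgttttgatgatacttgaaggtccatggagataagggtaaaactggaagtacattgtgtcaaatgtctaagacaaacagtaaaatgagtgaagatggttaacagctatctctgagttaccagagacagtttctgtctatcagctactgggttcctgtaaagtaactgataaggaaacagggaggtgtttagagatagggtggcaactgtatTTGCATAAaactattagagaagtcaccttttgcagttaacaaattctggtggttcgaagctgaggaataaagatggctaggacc
Il1rl1 proximal start, chr1:40439379-40439678: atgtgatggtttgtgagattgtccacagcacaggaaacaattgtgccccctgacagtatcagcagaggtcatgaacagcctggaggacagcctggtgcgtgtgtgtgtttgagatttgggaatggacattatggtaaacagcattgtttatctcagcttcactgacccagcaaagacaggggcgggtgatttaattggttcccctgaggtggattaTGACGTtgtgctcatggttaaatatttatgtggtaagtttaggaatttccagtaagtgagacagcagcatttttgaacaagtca
The proximal Il33 window holds a TATA box 29 bases and a C/EBP match 85 bases before the start. The Il6 window holds matches to kappa-B at 44, C/EBP at 128, the CRE half-site at 136 and AP-1 at 249 bases before the start. In the Lif window kappa-B matched at 178 and AP-1 at 228 bases before the start, and the 2 Il1rl1 windows hold a C/EBP match and a CRE half-site, each at 34 bases. Among the windows read but not shown, kappa-B matched only for Il1r1, 232 bases before a start. AP-1 matched there for Il11, 98 bases before a start, and for Osmr. The Il11 windows held no kappa-B match. Over 32851 mouse windows of the same length the shares with a match were 8.46% for kappa-B, 7.81% for AP-1, 10.8% for C/EBP, 7.51% for the CRE half-site and 13.6% for the TATA box. The STAT motif TTCNNNGAA, which 8.3% of all windows hold, had no match in the 13 windows read for these genes, which says only that these letters are not there.

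Il33 had the lowest adjusted p of the 10 genes. Its mRNA stood at 3.08 and 3.70 CPM in 2xSCS70, against 51.0 and 48.02 CPM in 2xSCS2F10. Both 2xSCS70 libraries lay far below both 2xSCS2F10 libraries, and the libraries of each line lay close together. The means were 3.39 ± 0.435 and 49.5 ± 2.08 CPM (SD, n = 2 libraries each), and the gene fell by 3.87 on the log2 scale (SE 0.17), 14.6-fold, with an adjusted p of 0.000485 in edgeR's quasi-likelihood test. It was called in 15 of 15 alternative fits, at log2 fold changes between -4.00 and -2.79, and the highest adjusted p was 0.0227. Il33 lies on chromosome 19 at 29925114 to 29960715 (mm10). The row of the small nucleolar RNA Snora19, which spans a far longer stretch and so covers Il33, held at most 6 counts in a library.

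Tslp, an alarmin that acts on dendritic cells and innate lymphocytes through Crlf2 and Il7r, was near the limit of detection in 2xSCS70. It had 3 and 3 fragments there, against 58 and 19 fragments in 2xSCS2F10, or 0.109 and 0.123 CPM against 2.98 and 0.997 CPM. Both 2xSCS70 libraries stood at the floor, and those of 2xSCS2F10 differed 2.90-fold from each other, with replicate 1 the higher. Over the summed fragments Tslp was 17.3-fold lower in 2xSCS70 (95% interval 7.59 to 48.6, counting error only), and the log2 fold change was -4.07 (SE 0.72, adjusted p = 0.0122, edgeR's quasi-likelihood test). The call was lost without 2xSCS70 replicate 1 (adjusted p = 0.117) and without its replicate 2 (adjusted p = 0.112). Without 2xSCS2F10 replicate 1 the log2 fold change was -3.09, and without its replicate 2 it was -4.66.

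Il18, made as a precursor that caspase-1 cleaves, did not pass the test. It measured 8.45 and 11.7 CPM in 2xSCS70, against 18.1 and 14.2 CPM in 2xSCS2F10. Every 2xSCS70 library was below every 2xSCS2F10 library in CPM, though the libraries within each line lay farther apart than the nearest libraries of the lines. The log2 fold change was -0.68 (SE 0.24), with an adjusted p of 0.0745 in edgeR's quasi-likelihood test and 0.0459 in DESeq2. Leaving out 2xSCS2F10 replicate 1 gave -0.51 (adjusted p = 0.0094, edgeR), and leaving out its replicate 2 gave -0.85 (adjusted p = 1.7e-05, edgeR).

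Of the gp130 ligands among the 10 genes (Il6, Il11 and Lif), Lif was the one called. LIF, which signals through a pair of gp130 and Lifr and is known for keeping stem cells undifferentiated, had 25.0 and 20.9 CPM in 2xSCS70, against 49.0 and 99.3 CPM in 2xSCS2F10. The lines did not overlap, and within 2xSCS2F10 replicate 2 was 2.03-fold above replicate 1. With means of 22.9 ± 2.89 and 74.1 ± 35.6 CPM (SD, n = 2 libraries each), Lif fell by 1.69 on the log2 scale (SE 0.36, adjusted p = 0.0200, edgeR's quasi-likelihood test). The call was lost without 2xSCS70 replicate 1 (adjusted p = 0.128) or 2 (adjusted p = 0.157), while the log2 fold change was -2.13 without 2xSCS2F10 replicate 1 and -1.10 without its replicate 2.

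Il6, the acute-phase and B cell cytokine, turned on a single library. It measured 2.14 and 1.93 CPM in 2xSCS70, against 1.75 and 22.9 CPM in 2xSCS2F10. Replicate 1 of 2xSCS2F10 lay just below both 2xSCS70 libraries, and replicate 2 lay 12.8-fold above it. Between the lines the log2 fold change was -2.59 (SE 1.13, adjusted p = 0.126, edgeR's quasi-likelihood test). Without 2xSCS2F10 replicate 1 it was -3.50 with an adjusted p of 1.44e-22, and without replicate 2 it was 0.22 with an adjusted p of 0.588, so the direction depended on which library was kept.

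Il11, a gp130 cytokine of stromal cells, was low in both lines. Its levels were 1.45 and 1.73 CPM in 2xSCS70, against 0.873 and 2.57 CPM in 2xSCS2F10. The 2xSCS70 libraries lay between those of 2xSCS2F10. The log2 fold change of -0.12 (SE 0.55, adjusted p = 0.878, edgeR's quasi-likelihood test) was smaller than its error, and it changed sign in 6 of 14 alternative fits.

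Of the receptors, Il6st was the most abundant. The gp130 mRNA stood at 240.8 and 254.2 CPM in 2xSCS70, against 550.9 and 583.8 CPM in 2xSCS2F10. The libraries of each line lay close together and the lines were well apart. Il6st averaged 247 ± 9.42 CPM in 2xSCS70 and 567 ± 23.2 CPM in 2xSCS2F10 (SD, n = 2 libraries each), and fell by 1.20 on the log2 scale (SE 0.12, adjusted p = 0.00289, edgeR's quasi-likelihood test). With one library of 2xSCS70 left out the adjusted p was 0.0814 without replicate 1 and 0.0751 without replicate 2.

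Osmr, which pairs with gp130 to bind oncostatin M, moved by a similar amount. It had 55.2 and 57.6 CPM in 2xSCS70, against 102 and 124 CPM in 2xSCS2F10, with no overlap. Its log2 fold change was -1.01 (SE 0.14, adjusted p = 0.00689, edgeR's quasi-likelihood test), 2.01-fold lower in 2xSCS70. This call too was lost without 2xSCS70 replicate 1 (adjusted p = 0.102) or replicate 2 (adjusted p = 0.0940). Oncostatin M itself (Osm) had no count in any library.

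Il1rl1 encodes ST2 as a membrane receptor and as a soluble decoy form, and gene counts do not separate these forms. It measured 14.8 and 14.5 CPM in 2xSCS70, against 13.8 and 52.1 CPM in 2xSCS2F10. As with Il6, replicate 1 of 2xSCS2F10 sat just below both 2xSCS70 libraries, and replicate 2 was 3.76-fold above it. The log2 fold change of -1.17 (SE 0.61) had an adjusted p of 0.179 in edgeR's quasi-likelihood test. Without 2xSCS2F10 replicate 1 it was -1.85 with an adjusted p of 2.14e-18, and without replicate 2 it was 0.08 with an adjusted p of 0.681. Of 6 markers of mast cells, which carry ST2, 2 were tested and both were lower in 2xSCS70. Ms4a2 had 0.0726 and 0.0822 CPM in 2xSCS70 and 7.24 and 10.5 CPM in 2xSCS2F10, while Cpa3 and Fcer1a had no count. Over all 6 the sum in 2xSCS2F10 was 7.65 and 10.9 CPM.

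Il1r1, the signalling receptor of IL-1, had 38.5 and 35.7 CPM in 2xSCS70, against 46.7 and 73.5 CPM in 2xSCS2F10. Both 2xSCS70 libraries were below both 2xSCS2F10 libraries, whose own gap was the wider one. The log2 fold change was -0.70 (SE 0.24), with an adjusted p of 0.0713 in edgeR's quasi-likelihood test and 0.036 in DESeq2. It was -0.999 without 2xSCS2F10 replicate 1 (adjusted p = 1.13e-10, edgeR) and -0.34 without its replicate 2 (adjusted p = 0.0135, edgeR).

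The libraries of one line could differ by more than the lines did. In 2xSCS70, replicate 2 minus replicate 1 ranged from -0.26 to 0.46 on the log2 scale over the 10 genes, and 0 differed by over 2-fold, where 2.72% of all genes tested did. In 2xSCS2F10, 5 of the 10 differed by over 2-fold (Il6, Il1rl1, Tslp, Il11 and Lif), where 12.4% of all genes tested did. Of these, 4 were higher in replicate 2, beside 5.75% of all genes, and Tslp was higher in replicate 1. The median absolute difference was 0.836 for the 10 genes and 0.290 for all genes tested in 2xSCS2F10, against 0.138 and 0.127 in 2xSCS70. Il33 and Il6st, at -0.09 and 0.08, hardly moved between the 2xSCS2F10 libraries. Outside the 10 genes, the chemokine Ccl2 had 1362 counts in 2xSCS2F10 replicate 1 and 11278 in replicate 2, and the acute-phase gene Saa3 had 104 and 1762 counts. Both were picked after their values were seen, and other listed genes went the other way. The IL-6 family ligand Clcf1 had 812 counts in 2xSCS2F10 replicate 1 and 450 in replicate 2, and the alarmin Hmgb1 had 11196 and 6652. What set the libraries apart was not tested.

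**Figure D3:**
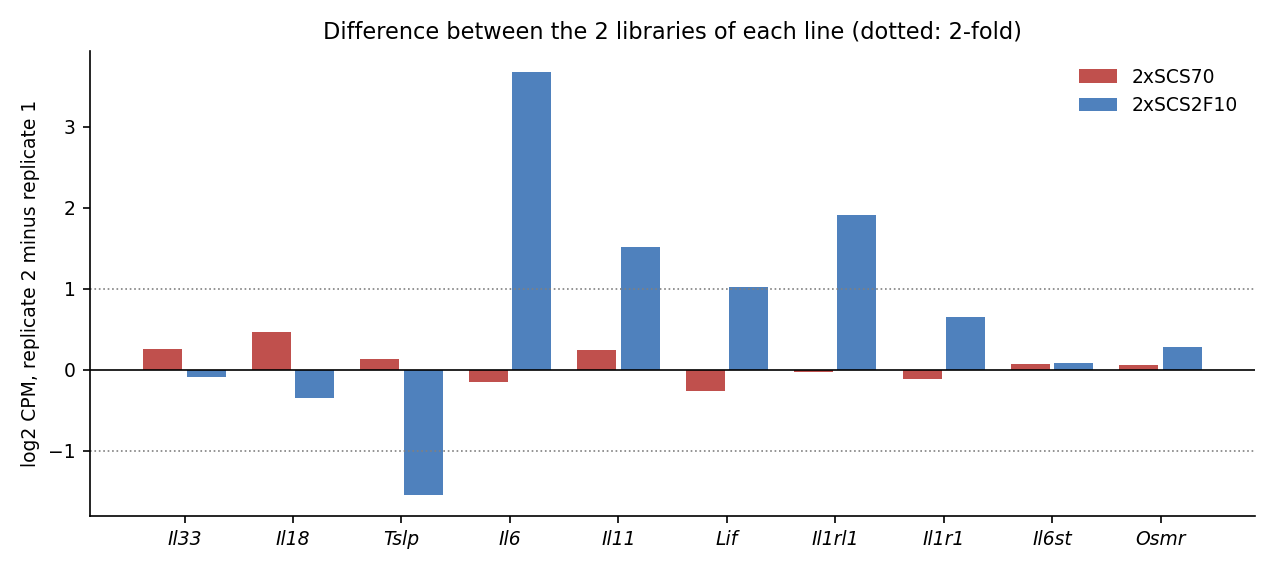
Difference between the 2 libraries of each line, replicate 2 minus replicate 1, in log2 CPM, with 2xSCS70 in red, 2xSCS2F10 in blue and dotted lines at 2-fold. The 2xSCS70 bars stay within -0.26 to 0.46, while in 2xSCS2F10 Il6 reaches 3.68, Il1rl1 1.91 and Il11 1.51, and Tslp goes down to -1.54.

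Levels of different genes were compared per length, as the deposited RPKM. In 2xSCS70 the order was Il6st (37.8 RPKM), Osmr (9.71), Il18 (9.60), Il1r1 (6.15), Lif (4.75), Il1rl1 (1.75), Il6 (1.56), Il33 (1.08), Il11 (0.678) and Tslp (0.0723), as means of 2 libraries. Osmr and Il18 overlapped, as did Il1rl1 and Il6. In 2xSCS2F10 the order was Il6st (73.5 RPKM), Osmr (16.5), Il33 (13.5), Il18 (13.3), Lif (12.6), Il1r1 (8.29), Il6 (7.41), Il1rl1 (3.18), Tslp (1.10) and Il11 (0.600). From Il33 downwards each neighbour in that order overlapped the next. Il33 thus stood eighth of the 10 in 2xSCS70 and in the group just under Osmr in 2xSCS2F10, and by RPKM it ranked 10962 and 10761 among all gene rows in 2xSCS70, against 3914 and 4119 in 2xSCS2F10.

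The subunits that pair with gp130 differed among themselves. Lifr had 32.9 and 41.8 CPM in 2xSCS70 and 31.8 and 35.6 CPM in 2xSCS2F10, and did not pass the test (adjusted p = 0.515, edgeR's quasi-likelihood test). Il6ra, the IL-6 binding chain, rose, with 15.6 and 17.02 CPM in 2xSCS70 against 4.47 and 7.61 CPM in 2xSCS2F10 (log2 fold change 1.43, SE 0.29, adjusted p = 0.018, edgeR). Per length and within a library, Il6ra equalled 10.6% and 10.9% of Il6st in 2xSCS70, against 1.32% and 2.13% in 2xSCS2F10. Lifr equalled 7.21% and 8.67% of Il6st in 2xSCS70, against 3.05% and 3.22% in 2xSCS2F10. For Osmr the shares were closer, at 25.8% and 25.6% in 2xSCS70 and 20.9% and 24.0% in 2xSCS2F10. The differences of these shares were not tested. Il11ra1, the IL-11 binding chain, had 2.54 and 2.67 CPM in 2xSCS70 and 2.47 and 2.31 CPM in 2xSCS2F10, and its near-identical copy Il11ra2 was listed at 0, so reads shared by the copies leave its level uncertain.

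On the IL-1 side, the shared subunit Il1rap had 64.4 and 65.1 CPM in 2xSCS70 and 51.0 and 63.3 CPM in 2xSCS2F10, and did not pass the test (adjusted p = 0.372, edgeR's quasi-likelihood test). Il18bp, the secreted inhibitor of IL-18, rose, with 7.98 and 8.55 CPM in 2xSCS70 against 1.95 and 2.05 CPM in 2xSCS2F10 (log2 fold change 2.05, SE 0.22, adjusted p = 0.0032, edgeR). Il18rap, the accessory IL-18 receptor chain, fell to 4.35 and 2.55 CPM in 2xSCS70, against 9.86 and 12.8 CPM in 2xSCS2F10 (log2 fold change -1.71, adjusted p = 0.0154, edgeR). The IL-18 binding chain Il18r1 was low in both lines, at 0.508 and 0.575 CPM in 2xSCS70 and 0.668 and 0.420 CPM in 2xSCS2F10. For TSLP, the receptor chain Crlf2 had 18.4 and 12.9 CPM in 2xSCS70 and 9.50 and 9.45 CPM in 2xSCS2F10 (adjusted p = 0.0531, edgeR), while its partner Il7r had 3 fragments over the libraries of 2xSCS70 and 1 over those of 2xSCS2F10.

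**Figure D4:**
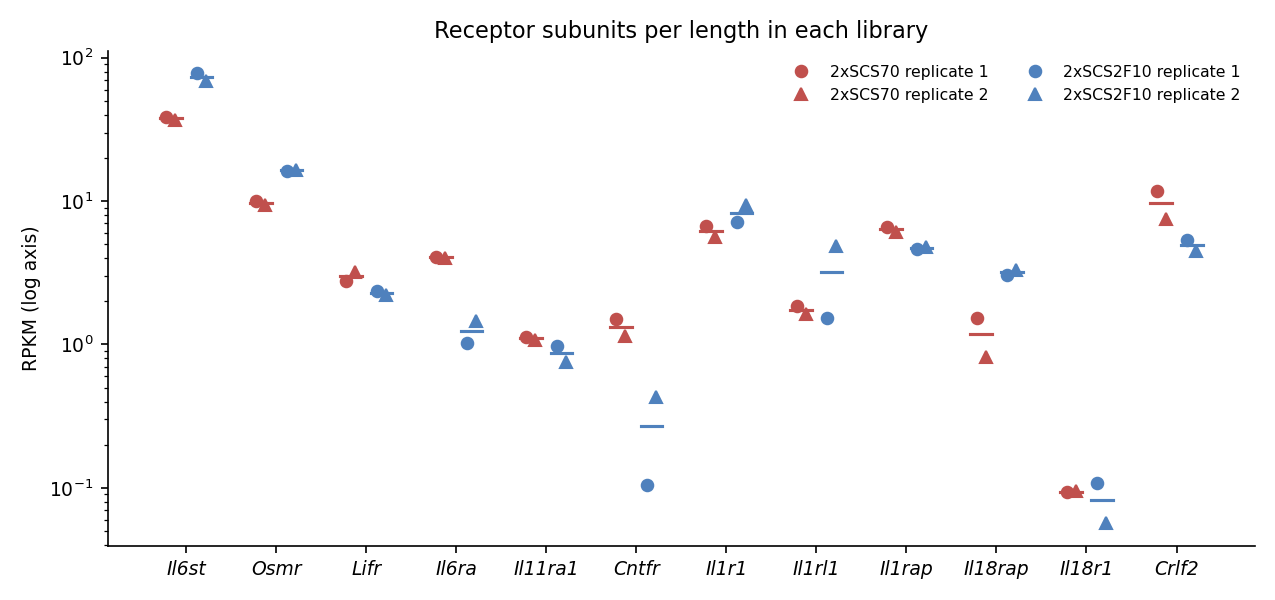
RPKM (log axis) of receptor subunits in each library, with 2xSCS70 in red and 2xSCS2F10 in blue, circles for replicate 1, triangles for replicate 2 and a bar at the mean of each line. Il6st and Osmr are lower in 2xSCS70, Il6ra is higher there, and Lifr lies close in both lines.

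Of the 97 tested genes in 12 lists of the surrounding pathways, 23 rose and 16 fell in 2xSCS70, beside 18.8% and 21.8% of all genes tested. The 39 calls became 6 without either library of 2xSCS70, and these were the same 6 genes, Peli2, Irak3, Nfkbiz, Casp1, Lcn2 and Icam1. They became 63 without 2xSCS2F10 replicate 1 and 65 without its replicate 2. With limma the split was 27 higher and 10 lower on log2(RPKM + 1), and 28 higher and 11 lower on log2(RPKM + 0.1). All genes tested leaned the same way in these fits. They gave 3218 higher and 1828 lower on log2(RPKM + 1), and 3377 higher and 1964 lower on log2(RPKM + 0.1).

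In the MyD88 and IRAK list 3 of 14 tested genes rose, 1 fell and 10 did not pass, with a median log2 fold change of 0.02. Peli2, a ubiquitin ligase of this pathway, had 21.5 and 20.3 CPM in 2xSCS70 and no count in 2xSCS2F10, at least 134-fold higher against the floor of 3 fragments per library. Irak3, an inhibitor of the IRAK kinases, had 5 fragments over the libraries of 2xSCS70 and 160 over those of 2xSCS2F10. Tab3 (log2 fold change 1.33) and Irak1 (0.92) also rose.

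Of 14 tested NF-kB factors and inhibitors 3 rose, 0 fell and 11 did not pass, with a median log2 fold change of 0.26. Nfkbiz, a nuclear cofactor induced by IL-1 signalling, averaged 133 ± 8.77 CPM in 2xSCS70 and 46.2 ± 5.14 CPM in 2xSCS2F10 (SD, n = 2 libraries each, adjusted p = 0.00222, edgeR's quasi-likelihood test). The inhibitor Nfkbia (log2 fold change 1.08) and the kinase subunit Ikbkg (0.84) were the others that rose.

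Among 9 tested genes of the inflammasome and of caspase processing 1 rose, 2 fell and 6 did not pass, with a median of 0.38. Casp1, the protease that cleaves pro-IL-18, had 480 fragments over the libraries of 2xSCS70 and 4 over those of 2xSCS2F10, an 89.1-fold higher level (95% interval 34.6 to 328, counting error only). The pore-forming Gsdmd (log2 fold change -0.93) and Casp4 (-1.58) fell. Of the 2 tested genes in the list of other alarmins 1 rose, S100b, with 27 fragments in 2xSCS70 and 3 in 2xSCS2F10, a ratio of 6.68 (95% interval 2.06 to 34.4), and the median was 1.68.

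The other IL-1 family ligands were mostly too low to test, with 2 of 8 tested, 4 listed at 0 in every library and a median of 0.16. Il1f9, now named Il36g, rose to 2.79 and 3.33 CPM in 2xSCS70, against 1.28 and 1.10 CPM in 2xSCS2F10 (adjusted p = 0.0196, edgeR's quasi-likelihood test). Of 5 tested IL-1 family receptors and binding proteins 2 rose (Il18bp and Sigirr, the last with 11 fragments in 2xSCS70 and 0 in 2xSCS2F10), 1 fell and 2 did not pass, with a median of 0.18. The Sigirr call was lost with the replicate block (adjusted p = 0.0558, edgeR's quasi-likelihood test) and in DESeq2 (adjusted p = 0.0523). With fragments in place of counts Sigirr was not tested.

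Among the other IL-6 family ligands Ctf1, cardiotrophin-1, fell to 5.26 and 4.40 CPM in 2xSCS70, against 14.7 and 12.9 CPM in 2xSCS2F10 (adjusted p = 0.00566, edgeR's quasi-likelihood test). Of 7 tested IL-6 family receptors and sheddases 1 rose (Il6ra), 1 fell (Il31ra, with 4 fragments in 2xSCS70 and 16 in 2xSCS2F10) and 5 did not pass, with a median of 0.15. The Il31ra call was lost with the replicate block (adjusted p = 0.0582, edgeR's quasi-likelihood test) and in DESeq2 (adjusted p = 0.0795). With fragments in place of counts Il31ra was not tested. None of 3 tested TSLP and IL-7 partners passed, with a median of 0.72, and Il2rg had 14 fragments in 2xSCS70 and 13 in 2xSCS2F10.

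Downstream of gp130, 5 of 11 tested JAK and STAT genes rose, 2 fell and 4 did not pass, with a median of 0.21. Jak2, a kinase bound to gp130, fell to 52.7 and 53.0 CPM in 2xSCS70, against 98.4 and 155 CPM in 2xSCS2F10 (adjusted p = 0.0143, edgeR's quasi-likelihood test). Stat5a (log2 fold change 0.91), Stat5b (0.95) and Stat2 (0.93) rose. Stat3 had 160 and 153 CPM in 2xSCS70 and 192 and 305 CPM in 2xSCS2F10 and did not pass (adjusted p = 0.079, edgeR).

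Of 12 tested SOCS genes and other JAK inhibitors 2 rose, 3 fell and 7 did not pass, with a median of 0.12. Ptpn6 (log2 fold change 2.33) and Socs7 (0.60) rose, and Socs6 (-0.69) and Socs2 (-1.56) fell. Socs3, the feedback inhibitor of gp130 and a STAT3 target, had 18.8 and 14.9 CPM in 2xSCS70 and 18.4 and 11.4 CPM in 2xSCS2F10 (adjusted p = 0.640, edgeR's quasi-likelihood test).

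Genes known to respond to STAT3 moved both ways, with 3 of 14 higher, 5 lower and 6 not passing, and a median of 0.00. Lcn2, an iron-binding acute-phase protein, had 1026 fragments in 2xSCS70 and 10 in 2xSCS2F10, a log2 fold change of 6.24 that was 6.94 without 2xSCS2F10 replicate 1 and 5.77 without its replicate 2 (adjusted p = 0.000782 in the full comparison, edgeR's quasi-likelihood test). Icam1, an adhesion molecule, averaged 14.6 ± 1.69 CPM in 2xSCS70 and 201 ± 60.8 CPM in 2xSCS2F10 (SD, n = 2 libraries each, log2 fold change -3.79, adjusted p = 0.00117, edgeR's quasi-likelihood test). Haptoglobin (Hp, log2 fold change -2.43) and the kinase Pim1 (-2.04) fell as well.

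**Figure D5:**
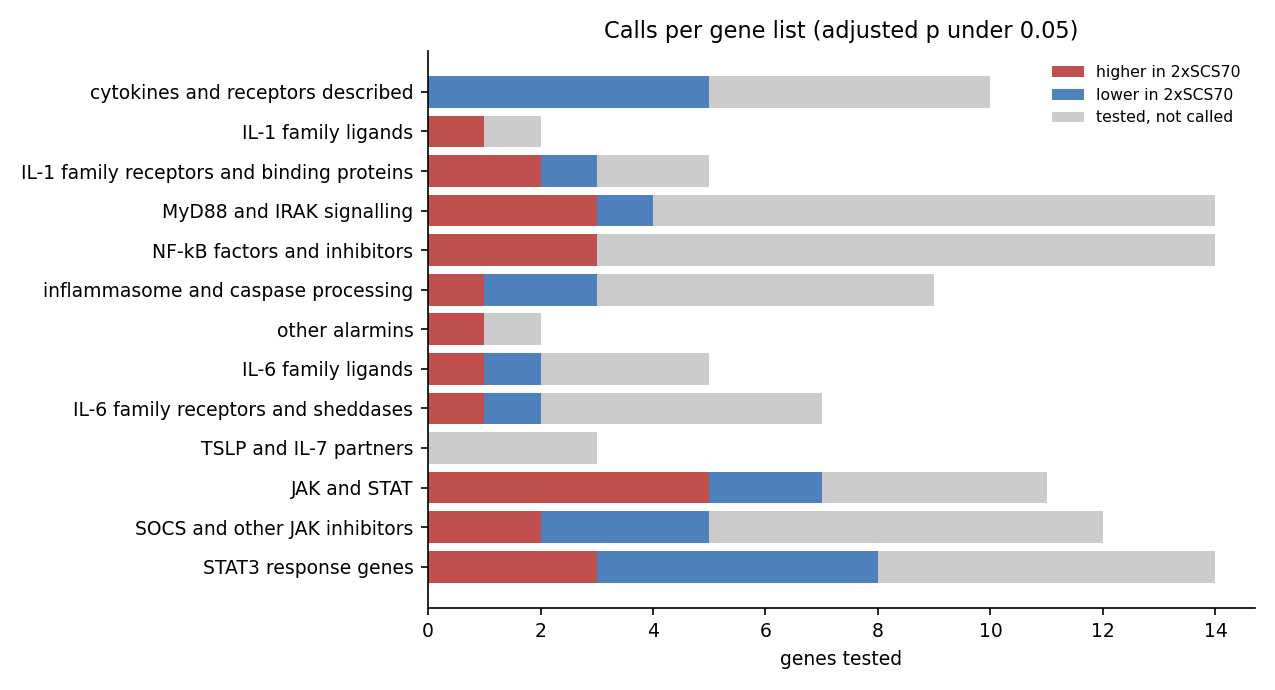
Number of tested genes called higher (red) or lower (blue) in 2xSCS70 at an adjusted p under 0.05, or not called (grey), for the 10 genes and the 12 pathway lists. The 10 genes have 5 lower and 0 higher calls, while JAK and STAT genes have 5 higher and 2 lower, and STAT3 response genes 3 higher and 5 lower.

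Genes most like Il33, Tslp and Lif over the 4 libraries were found by the distance between log2 CPM values, each centred on its own mean. A shared pattern thus follows from how they were chosen and is no separate result. For Il33 these were G6pc3 (distance 0.116), Slc1a2 (0.122), Oplah (0.135), Tbxa2r (0.166) and Pax3 (0.202). Oplah, for one, had 1.96 and 2.18 CPM in 2xSCS70, against 34.4 and 31.2 CPM in 2xSCS2F10. Tslp lay closest to Fetub (0.272), Sox6 (0.289), Isl1 (0.323), Gm17384 (0.410) and Ocln (0.421), which share its higher level in 2xSCS2F10 replicate 1. All of these but Sox6 stood near or below the floor in 2xSCS70, so their distances rest on few fragments. The genes nearest to Lif were Tbc1d16 (0.120), Fhod3 (0.139), Sulf2 (0.171), Hic1 (0.186) and Smtn (0.195), which share its higher level in 2xSCS2F10 replicate 2.

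Several genomic neighbours of the 10 genes, Osm among them, had too few counts to test. Among the tested neighbours Gypc, Wdr36 and Il31ra were called, where 40.6% of all genes tested were called. The other tested neighbours were not called: Ranbp6, Sdhd, Dnajb6, Tyms, Tmem190, Hormad2, Il18r1, Ankrd55, Rictor and Lifr. Il18r1 begins 138 bases after the end of Il1rl1 on chromosome 1 and had an adjusted p of 0.989 in edgeR's quasi-likelihood test. Osm ends 16542 bases before Lif on chromosome 11 and was listed at 0. Ranbp6, before Il33, had a log2 fold change of -0.44 (adjusted p = 0.0626, edgeR). The nearest genes on either side of Tslp that do not overlap it both fell. Gypc, 255349 bases away, had a log2 fold change of -1.49 (adjusted p = 0.0147, edgeR). Wdr36, 17426 bases away, had -0.55 (adjusted p = 0.0442, edgeR). Il31ra, 15947 bases beyond Il6st, fell in the main fit, with the limits given above.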

How the data were processed

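RNA of 2 libraries per line was sequenced with an Illumina TruSeq mRNA kit, which does not mark strand, so reads of overlapping genes on opposite strands cannot be told apart. TopHat2 2.0.6, Bowtie and HTSeq on mm10 are named in the submitters' processing notes, with an annotation that the sources used here do not give. Counts were deposited raw by the authors and were all even, so 1 fragment was taken as 2 counts. The authors also deposited RPKM values, per the file headers, used for levels between genes. Lines were compared with edgeR 4.0.16 (quasi-likelihood test, TMM scaling, filterByExpr, R 4.3.3) on all genes, and Benjamini-Hochberg adjusted p-values under 0.05 were called, over 14496 genes tested of 23358. Each SE is the size of the log2 change over the root of its F statistic. Log2 CPM used a prior count of 2. A check of the test on simulated data gave all libraries the same spread, so it does not cover the wider spread of 2xSCS2F10.

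The 10 genes and all lists were chosen with earlier results of these data known. Named are the 10 genes, up to 4 called genes per list by adjusted p (otherwise the 2 most abundant), the 5 genes most like each of 3 called genes, and genomic neighbours. Il1rap, Il11ra1, Il7r, Stat3, Socs3, Ccl2, Saa3, Clcf1 and Hmgb1 were added after their values were seen. A result that this rule would name is not reported here. Alternatives were each library left out, a block on the replicate number, scaling by RLE or upper quartile, a 5 CPM filter or none, DESeq2 1.42.0, limma 3.58.1 (voom, log2(RPKM + 1), log2(RPKM + 0.1)), fragments in place of counts, and a test against a 1.5-fold change. A library left alone in its line was assumed to have the spread of the other line. Intervals and floors cover counting error only. Summaries and figures used Python 3.11.15, pandas 2.3.3, scipy 1.17.1 and matplotlib 3.10.9.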

Additional observations from a re-analysis of the deposited data

How the results depend on the processing

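With a library left out, the 10 genes gave 1 to 9 calls, the pathway lists 6 to 65 and all genes 850 to 9567, where the full fit gave 5, 39 and 5888. Leaving out a library of 2xSCS70 gave the low counts and leaving out one of 2xSCS2F10 the high ones. Against a 1.5-fold change, all genes gave 3094 calls and the pathway lists 22. DESeq2 called 7 of the 10 genes, the others being Il18 and Il1r1. Over 148 alternative values of the 10 genes, 8 changed sign. For Il11 the log2 fold change was 0.0468 with the replicate block, 0.0738 with limma-voom, 0.0866 on log2(RPKM + 1) and 0.25 on log2(RPKM + 0.1), and with a library left out it ran from -0.71 to 0.86. With a library left out Il6 ran from -3.50 to 0.22 and Il1rl1 from -1.85 to 0.0787. The same-numbered libraries of the lines were submitted together, but the labels name no shared batch and the correlation of their deviations was 0.0539, so they were not treated as pairs. The replicate block left 5 of the 10 genes, 37 pathway genes and 5222 of all genes called. The median log2 fold change of all genes, 0.02, was 0.11 with upper quartile scaling, 0.15 on log2(RPKM + 1) and 0.25 on log2(RPKM + 0.1). With 2 libraries per line, and 3 fragments per 2xSCS70 library for Tslp, small differences in the low genes were not detectable at this depth. The cause of these shifts was not tested.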
